A study of Mus musculus with 9 samples.

Results

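Oxidative phosphorylation genes encode the respiratory chain and the ATP synthase of the inner mitochondrial membrane. They were taken as the protein-coding genes whose symbols begin with Nduf, Uqcr, Cox4 to Cox8, Atp5, mt-Nd, mt-Co, mt-Cytb or mt-Atp, together with Sdha, Sdhb, Sdhc and Sdhd, and 107 of the 55450 annotated genes met this rule. Of these members, 94 lie in the nuclear genome and 13 in the mitochondrial genome. The nuclear members were grouped as the core subunits (7), accessory subunits (29) and assembly factors (8) of complex I and as complexes II (4), III (8), IV (20) and V (18), with Ndufa4 and Ndufa4l2 placed in complex IV. Atp5o is annotated under 2 identifiers, so the 107 members have 106 symbols.

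The study compared the developing with the mature mouse pituitary gland by sequencing of poly(A)-selected RNA. The embryonic tissue was Rathke's pouch, the fold of oral ectoderm that gives rise to the anterior and intermediate lobes, taken at e13.5 (embryonic day 13.5) from 7 embryos that carried the Sox2Egfp/+ genotype, with a fluorescent reporter at the Sox2 locus. The adult tissue came from 2 mice at postnatal week 8 and was the gland after removal of the posterior lobe. All animals had a mixed 129Sv/c57BL6J background, both sexes were present at each stage, and neither the sex of each library nor the Sox2 genotype of the adults is given.

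Read pairs counted on genes numbered 16738863, 28537311, 24816013, 18825731, 24687556, 22393725 and 25755469 in embryos 1 to 7, and 36421545 and 31191117 in adults 1 and 2. Levels are given as CPM (counts scaled to libraries of equal size) and differences as the log2 of embryo over adult, so that positive values are higher in the embryo. A gene with 0 counts could still have reached 3 counts, a floor of 0.0962 to 0.220 CPM in the embryos and 0.0727 and 0.0843 CPM in the adults, which covers counting error alone. A gene is said to have risen or fallen in the embryo relative to the adult when its adjusted p in edgeR was below 0.05. With 7 embryos and 2 adults an exact two-sided permutation test of a single value cannot give a p below 0.0556, so sums and shares are given for each library without a test.

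Complexes I and II pass electrons from NADH and succinate to ubiquinone, complex III passes them on to cytochrome c, and complex IV uses them to reduce oxygen to water. Complexes I, III and IV pump protons as they do so, and complex V, the ATP synthase, makes ATP from the returning flow. The mitochondrial genome encodes subunits of complexes I, III, IV and V, whereas all the other subunits and the whole of complex II are encoded in the nucleus, translated in the cytosol and imported, so each mosaic complex needs transcripts from both genomes.

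The libraries carried the markers of their labelled tissues. Of 8 genes of Rathke's pouch and progenitors, those that rose in the embryo included Hesx1, Pitx1 and Lhx3, and Sox2, which also marks adult stem cells, fell. For Sox2, stage cannot be told apart from genotype, since the embryos carried the reporter at that locus and the adult genotype is not given. The summed level of the 8 genes was 669 to 1607 CPM in the embryos, led by Pitx1, and 656 and 569 CPM in the adults, led by Six6. Of 11 genes of the adult hormone cells, 10 were higher in the adult, and their sum was 889 to 1939 CPM in the embryos, led by Cga, and 152817 and 160422 CPM in the adults, led by Gh. Of 5 proliferation genes Cdk1, Ccnb1 and Birc5 rose, Mki67 (−0.88, adjusted p = 0.148) and Top2a (−0.0386, adjusted p = 0.922) were not called, and the sum was 364 to 619.6 CPM against 138 and 150.2, led by Cdk1 in the embryo and Top2a in the adult.

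Embryos 1 and 4 stood apart from the other embryos by their red blood cell transcripts. The 9 genes of that list summed to 180254 and 225217 CPM in embryos 1 and 4, 6428 to 20019 CPM in the other 5 embryos and 763 and 1976 CPM in the adults. The embryonic globin gene Hbb-y led in the embryos and the adult form Hbb-bs in the adults, 8 of the 9 rose, and Hba-x and Hbb-bh1 had at most 3 counts in either adult. In embryos 1 and 4, 59.7% and 62.8% of read pairs were counted on genes and 21.7% and 26.1% aligned to several places (14.1% to 19.7% in the other embryos against 7.16% and 7.52% in the adults), whereas 73.9% to 80.00% were counted in the other embryos against 84.02% and 83.7% in the adults. Leading counts are also given without embryos 1 and 4.

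Transcripts of other cell types that a dissection could hold were also present. Connective tissue genes summed to 658 to 2333 CPM in the embryos and 717 and 458 CPM in the adults, led by Col3a1 and Col1a2, with 4 of 6 higher in the embryo, and exceeded the sum of the pouch list in embryos 1, 2, 5, 6 and 7. Endothelial genes, led by Emcn and Kdr, summed to 116 to 432 CPM in the embryos and 117 and 73.5 CPM in the adults, with 3 of 5 higher in the embryo. In both sums adult 1 lay within the range of the embryos and adult 2 below it. Cartilage genes were both higher in the embryo, where Col2a1 led and the sum was 155 to 364 CPM against 14.1 and 7.73. Macrophage genes summed to 115 to 302 CPM in the embryos and 97.4 and 154 CPM in the adults, led by C1qb, which rose, and Csf1r, and Ptprc fell. Genes of the posterior lobe and neural tissue summed to 83.1 to 313 CPM in the embryos and 129 and 107 CPM in the adults, led by Tubb3, but of 7 genes Rax rose, and Avp, with 0 counts in every embryo, Oxt, Col25a1 and Gfap fell. Skeletal muscle genes summed to 1.54 to 6.24 CPM in the embryos and 2.01 and 0.674 CPM in the adults, and Myh3 and Myog rose and Ckm fell. These marker calls are without the correction described below, after which Lhx3, C1qb, Hba-a1, Hba-a2, Hbb-bs and Hbb-bt were not called, Six6, Tek and Top2a rose and Tshb and C1qa fell. The part of any of these cell types in the differences between the stages was not tested, and in bulk tissue a change in the number of cells of a type cannot be told apart from a change in RNA per cell.

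Nuclear genes of oxidative phosphorylation were more abundant in Rathke's pouch than in the adult gland across all 5 complexes, whereas before correction few genes of the mitochondrial genome were called. Of the 89 nuclear members with enough counts to test, 82 rose in the embryo, where 24.0% of all 19371 tested genes did, and 40 rose by more than 4-fold, where 11.3% of all genes did. By edgeR 0 fell, against 27.4% of all genes that were higher in the adult (14.6% by more than 4-fold), and 2, Sdha and Ndufs1, were lower at an unadjusted p below 0.05 and by DESeq2, with Ndufs1 also called without embryo 7. The median log2 difference was 1.92, a 3.79-fold excess, against −0.04 over all tested genes. Every embryo was above both adults for 82 of the 89 and below both for 3, and among all tested genes the counts were 5082 and 6366 of 19371. Without embryos 1 and 4 the count stayed at 82 and 0 and the median was 1.75, and with other scalings between libraries 80 to 82 rose, but once length and GC content were corrected for, as given below, 36 rose, 3 fell and the median excess was 1.28-fold with the principal length of a gene, or 63 and 2 with a median log2 difference of 0.97 with its median length.

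The summed level of the nuclear members was 17145 to 37680.4 CPM in the embryos, with a median of 27261, and 8469 and 7589 CPM in the adults. The lowest embryo was above the higher adult, and the means differed 3.51-fold (28219.8 ± 7690.02, SD, n = 7, against 8029 ± 622, SD, n = 2). As a share of counts, nuclear members made up 2.65% ± 0.344 (SD, n = 7) of the embryo libraries and 0.913% ± 0.0663 (SD, n = 2) of the adult libraries. The 13 mitochondrial genes took 1.92 to 4.49% of counts in the embryos against 2.84 and 3.07% in the adults, and these ranges overlapped. For each nuclear member count there were therefore 0.770 to 2.15 mitochondrial counts in the embryos against 2.96 and 3.54 in the adults, without overlap.

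With hormone and globin genes left out of the total, the nuclear share was 2.57-fold higher in the embryo, in place of 2.90-fold, and the mitochondrial share was 0.978 times the adult share, in place of 1.11 times.

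Of the 12 mitochondrial genes tested, 2 rose (mt-Co3 and mt-Nd3) and 1 fell (mt-Nd5), where 24.0% and 27.4% of all genes did. Their median log2 difference was 0.77. Both genes that rose are copied almost completely in the nuclear genome, which limits what their counts measure. Over the 7 genes that could be measured apart from such copies the median was 0.19, 1 fell, and 0 rose in edgeR, with 0 also at an unadjusted p below 0.05 and by DESeq2. The calls of the mitochondrial genes depended on single libraries: mt-Nd3 was not called without adult 1, mt-Nd5 was not called when either adult was left out, and 3 rose without embryo 3, where mt-Co2 was called. Those values were 2.38, adjusted p = 0.098 for mt-Nd3, −1.30, adjusted p = 0.0697 and −1.34, adjusted p = 0.0644 for mt-Nd5, and 1.92, adjusted p = 0.041 for mt-Co2. Without embryos 1 and 4, mt-Nd4 was called as well, so that 2 rose and 2 fell.

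**Figure D1:**
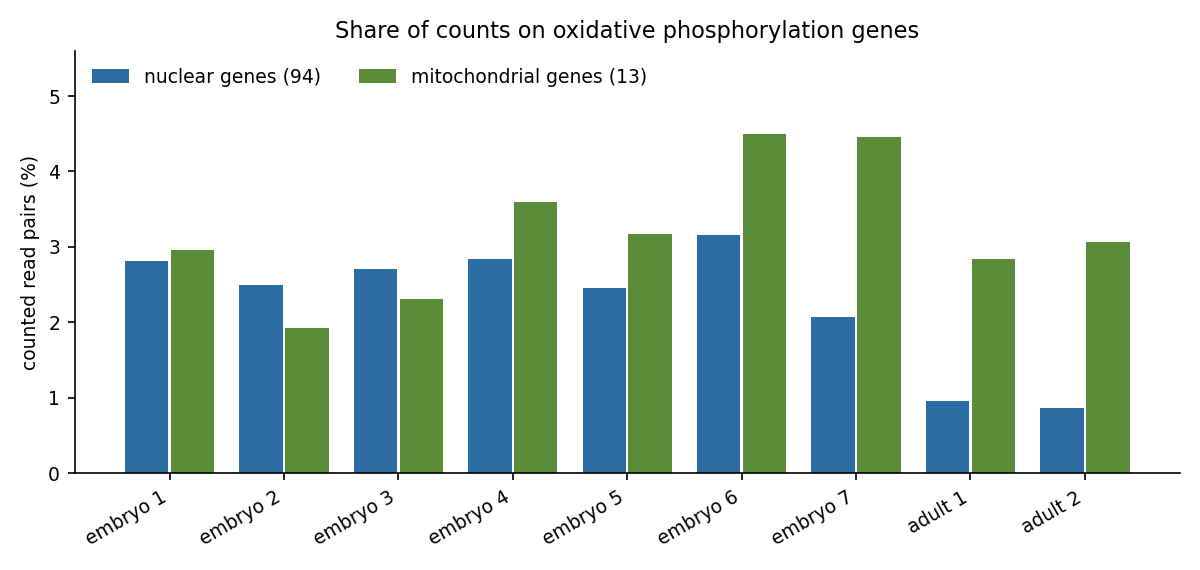
Bars give the percent of counted read pairs on the 94 nuclear (blue) and 13 mitochondrial (green) genes of oxidative phosphorylation in each of the 7 embryo and 2 adult libraries. Nuclear genes took 2.08 to 3.15% in the embryos against 0.960 and 0.866% in the adults, and the green bar was over 2 times the blue one in both adults, as in embryo 7.

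Of the members, 6 had too few counts to test, with a mean below 5 per library. Cox8c, the testis form of subunit 8, and the second Atp5o identifier had 0 counts in all 9 libraries. Cox7b2 had 1 count in each of 2 embryos and 0 elsewhere, and Cox6a2, the heart and muscle form of subunit 6a, had 1 and 2 counts in embryos 5 and 7 and 2 in adult 2. Cox8b, the heart and muscle form of subunit 8, had 1 count in embryo 7 and 8 and 6 in the adults. The mitochondrial gene mt-Nd4l had 0 to 3 counts in every library.

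The nuclear members have short transcripts, and the difference between stages depended on transcript length across the genome. Their median principal transcript was 875 bases, against 2666 over all tested genes. Across the 15575 tested protein-coding genes, Spearman's correlation of length with the log2 difference was −0.43, a description over genes, which are not independent replicates. Among transcripts of 300 to 500 bases the median was 2.33 for 6 members and 1.82 for 91 other genes. Among those of 500 to 700 bases it was 2.18 for 25 members and 1.87 for 219 other genes. Among those of 700 to 1000 bases it was 1.98 for 19 members and 1.46 for 608 others. Short genes in general were thus higher in the embryo libraries. From 1000 to 2000 bases the medians were 1.70 for 30 members and 0.77 for 3242 others, and from 2000 to 4000 bases 0.99 for 7 members and −0.06 for 6367 others. Before correction the members stood above genes of like length in each of these bins, and from 500 bases on the gap grew with length.

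After each library's counts were corrected for transcript length and GC content, 36 of the 89 nuclear members rose, where 20.0% of all genes did, and 3 fell (Ndufa1, Cox6a1 and Sdha), where 27.0% of all genes were higher in the adult. The median log2 difference became 0.35, against −0.14 over all tested genes. A smaller excess remained, carried by fewer genes. The summed level was 20248 to 24557 CPM in the embryos and 16585 and 15082 CPM in the adults after correction, without overlap, and the means differed 1.42-fold in place of 3.51-fold. Of the 36, 34 were also among the 82, and 18 of the 82 had a negative log2 difference after correction. Within the members the correlation of length with the log2 difference went from −0.57 to 0.43, and over all protein-coding genes to 0.01. In the same bins, from short to long, the corrected medians were −0.0821, 0.25, 0.35, 0.73 and 0.61 for the members against −0.0931, 0.0487, −0.0861, −0.079 and −0.10 for other genes. What share of the length dependence is technical was not tested, and most values are therefore given with and without correction.

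Correction with other transcript lengths, or without embryos 1 and 4, gave different counts but a shared set of genes. With the median length of a gene's coding transcripts, 63 nuclear members rose, 2 fell and the median was 0.97, where 4477 and 4973 of all 19371 genes were called for the embryo and for the adult. Without embryos 1 and 4, 41 rose, 3 fell and the median was 0.47, where 4902 and 5864 of 19508 genes were. The mitochondrial median, 0.0509 with the principal length, was 0.86 with the median length, when 6 of the 12 rose, and thus near the nuclear one. With the median length Ndufa1 (−0.43, adjusted p = 0.12) and Cox6a1 (−0.017, adjusted p = 0.942) were not called, and Sdha and Ndufs1 fell. With that length and all 9 libraries, Ndufs8, Ndufa3, Ndufaf2, Ndufaf6, Uqcrh, Cox7a1, Cox7a2, Atp5k, Atp5g2, Cox17, Nrf1 and mt-Nd3, described below, kept calls that they lost with the principal length. In all 3 corrected fits 34 nuclear members rose. They included Ndufv2, Ndufc1 and Ndufaf5 of complex I, Sdhb and Sdhc of complex II, Uqcrq of complex III, Cox4i1, Cox4i2, Ndufa4 and Ndufa4l2 of complex IV and Atp5o and Atp5g1 of complex V.

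**Figure D2:**
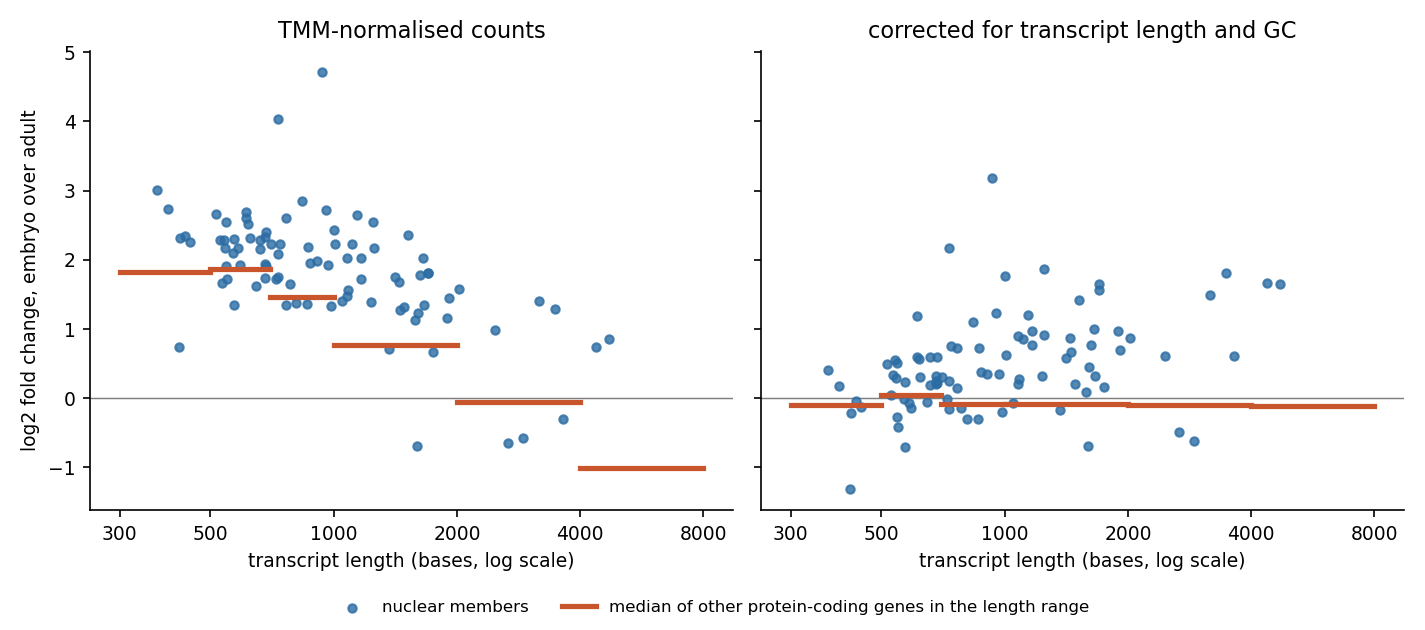
Log2 fold change, embryo over adult, of each tested nuclear member (blue points) against the length of its principal transcript in bases on a log axis, before (left) and after (right) correction for length and GC content, with orange lines for the median of other protein-coding genes in each length range. Before correction these medians went from 1.87 at 500 to 700 bases to −1.004 above 4000 bases, and after it they lay between −0.11 and 0.0487.

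Before correction every complex was represented more highly in Rathke's pouch, with the largest median in complex IV. Of all tested genes 24.0% rose, and 11.3% rose by more than 4-fold. In complex IV all 16 tested nuclear members rose, 12 of them by more than 4-fold, with a median log2 difference of 2.25. All 8 members of complex III rose, with a median of 2.15, and 16 of 17 of complex V rose, with a median of 2.02. Complex I accessory subunits rose in 27 of 29 cases, with a median of 1.94. Medians were lower for the core subunits of complex I (1.41, 6 of 7), its assembly factors (1.44, 6 of 8) and complex II (1.40, 3 of 4). The differences between the groups were not tested, and the groups also differ in transcript length, from a median of 652 bases in complex IV to 2066 in complex II. With single libraries left out in turn, fewer members of complexes I, III, IV and V were called in some fits. The core count of complex I was 3 in place of 6 without adult 2.

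Summed levels gave the same order of stages in each group, since every embryo was above both adults for each of the 7 sums. The ratio of mean sums was 4.68 for complex IV, 3.76 for the accessory and 2.79 for the core subunits of complex I, 3.74 for complex III and 3.25 for complex V. It was 2.21 for the assembly factors of complex I and 2.12 for complex II. After correction these ratios drew together, from 1.23 for the assembly factors to 1.52 for the core subunits of complex I, with 1.45 for complex IV, 1.46 for complex III, 1.46 for complex V and 1.47 for complex II. Corrected medians were 0.76 for complex II, 0.58 for V, 0.56 for IV and 0.42 for III, and 0.32, 0.32 and 0.26 for the core, accessory and assembly groups of complex I.

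**Figure D3:**
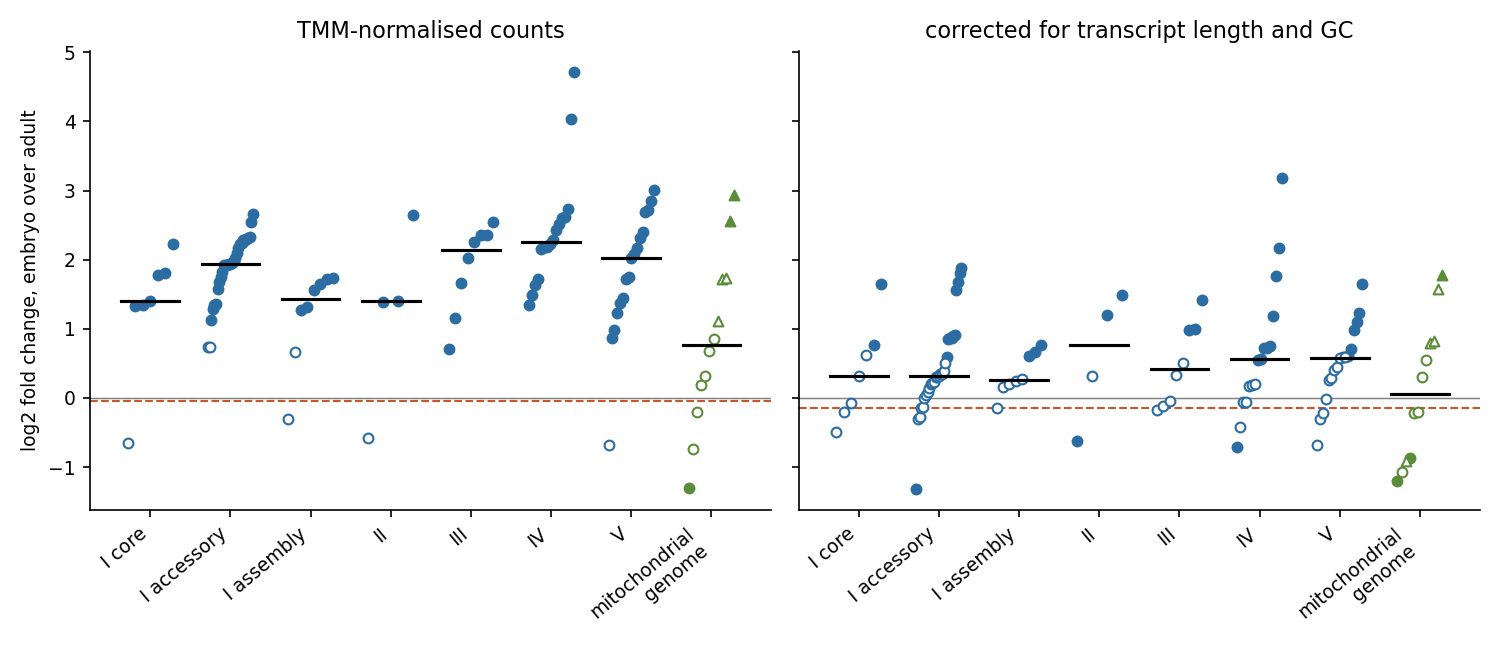
Log2 fold change, embryo over adult, of each tested member by complex, before (left) and after (right) correction for transcript length and GC content, with solid points for an adjusted p below 0.05, open points for the rest, black bars for medians, and triangles for mitochondrial genes not measured apart from nuclear copies or with few counts. The dashed red line is the median of all 19371 tested genes (−0.04 and −0.14), and the nuclear medians before correction ran from 1.40 in complex II to 2.25 in complex IV.

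Among the core subunits of complex I, which carry its flavin and iron-sulphur clusters, the largest differences were those of Ndufs8 and Ndufv2. Ndufs8, an iron-sulphur subunit of the arm that hands electrons to ubiquinone, was at 121 to 447 CPM in the embryos (median 267) against 63.6 and 56.00 in the adults. For Ndufs8, every embryo was above both adults, and the log2 difference was 2.22 (SE 0.484, adjusted p = 0.00173), and 0.62 (adjusted p = 0.0616) after correction. Ndufv2, an iron-sulphur subunit of the NADH-oxidising module, was at 282 to 646 CPM in the embryos (median 358) against 121 and 112 in the adults. For Ndufv2, every embryo was above both adults, and the log2 difference was 1.80 (SE 0.365, adjusted p = 0.00105), and 1.65 (adjusted p = 0.000109) after correction. Ndufv2 was thus nearly as high in the embryo after correction as before. With all 9 libraries, Ndufs8 kept its call with the median length but not with the principal length. Ndufs7, another iron-sulphur subunit and the least abundant core subunit per kb in the adult, was at 56.5 to 150.1 CPM in the embryos (median 90.6) against 43.5 and 37.9 in the adults. For Ndufs7, every embryo was above both adults, and the log2 difference was 1.33 (SE 0.368, adjusted p = 0.00796), and −0.20 (adjusted p = 0.401) after correction. Ndufs7 was not called without adult 1 (1.41, adjusted p = 0.0549) or adult 2 (1.22, adjusted p = 0.0908). Ndufs1, the largest subunit of the NADH-oxidising module, was at 51.3 to 108 CPM in the embryos (median 74.04) against 117 and 116 in the adults. For Ndufs1, every embryo was below both adults, and the log2 difference was −0.65 (SE 0.269, adjusted p = 0.055), and −0.49 (adjusted p = 0.0916) after correction. Ndufs1, the single core subunit not called, fell without embryo 7 (−0.77, adjusted p = 0.013) and by DESeq2 (−0.69, adjusted p = 0.0387), so that subunits of one module pointed in different directions.

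The accessory subunits surround the core of complex I and stabilise it. Ndufa3, a small membrane-arm subunit (chr7:3617373-3620327, plus strand, GRCm38), was at 125 to 439 CPM in the embryos (median 232) against 44.8 and 37.7 in the adults. For Ndufa3, every embryo was above both adults, and the log2 difference was 2.67 (SE 0.478, adjusted p = 0.00044), and 0.50 (adjusted p = 0.0894) after correction. Ndufc1, another small membrane-arm subunit, was at 90.2 to 299 CPM in the embryos (median 167) against 35.6 and 30.4 in the adults. For Ndufc1, every embryo was above both adults, and the log2 difference was 2.54 (SE 0.462, adjusted p = 0.00049), and 1.87 (adjusted p = 0.000437) after correction. These were the largest differences in the group, and Ndufc1 kept its call after correction. Ndufa1, an X-linked membrane-arm subunit and the most abundant accessory subunit per kb in the adult, was at 81.8 to 206 CPM in the embryos (median 108) against 88.03 and 70.6 in the adults. For Ndufa1, the embryos and adults overlapped, and the log2 difference was 0.74 (SE 0.378, adjusted p = 0.117), and −1.31 (adjusted p = 0.000188) after correction. Ndufa1, with one of the shortest transcripts, thus fell after correction, but not with the median length, as given above. Ndufb2, a membrane-arm subunit and the least abundant accessory subunit per kb in the adult, was at 16.5 to 43.6 CPM in the embryos (median 25.7) against 16.3 and 16.3 in the adults. For Ndufb2, every embryo was above both adults, and the log2 difference was 0.74 (SE 0.371, adjusted p = 0.109), and 1.67 (adjusted p = 0.00525) after correction. Ndufb2 changed the other way, from no call to a rise, also with the median length (1.38, adjusted p = 0.0101). Its principal transcript was taken as 4371 bases, and its level per kb and the 1.67 depend on that length. After correction with the principal length 10 of 29 accessory subunits rose and Ndufa1 fell (all genes: 20.0% and 27.0%).

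Assembly factors bind complex I while it is built and are not part of the finished enzyme. Ndufaf2, a chaperone of late assembly, was at 22.9 to 39.6 CPM in the embryos (median 28.5) against 8.75 and 8.77 in the adults. For Ndufaf2, every embryo was above both adults, and the log2 difference was 1.74 (SE 0.304, adjusted p = 0.000367), and 0.25 (adjusted p = 0.508) after correction. Ndufaf5, which modifies Ndufs7 during assembly, was at 22.8 to 44.1 CPM in the embryos (median 35.7) against 9.52 and 11.3 in the adults. For Ndufaf5, every embryo was above both adults, and the log2 difference was 1.73 (SE 0.330, adjusted p = 0.000701), and 0.76 (adjusted p = 0.0098) after correction. Both rose, and with the median length both kept their calls, whereas with the principal length Ndufaf5 did. Ndufaf3, an early factor and the most abundant per kb in the adult, was at 39.4 to 78.9 CPM in the embryos (median 58.6) against 26.4 and 23.3 in the adults. For Ndufaf3, every embryo was above both adults, and the log2 difference was 1.31 (SE 0.315, adjusted p = 0.00326), and 0.20 (adjusted p = 0.386) after correction. Ndufaf6, the least abundant per kb in the adult, was at 10.8 to 26.8 CPM in the embryos (median 19.2) against 6.66 and 6.27 in the adults. For Ndufaf6, every embryo was above both adults, and the log2 difference was 1.56 (SE 0.369, adjusted p = 0.00294), and 0.28 (adjusted p = 0.398) after correction. Ndufaf3 was not called without adult 2 (1.21, adjusted p = 0.0588). Ndufaf4, which acts with Ndufaf3, was at 11.98 to 23.7 CPM in the embryos (median 17.5) against 21.7 and 22.8 in the adults. For Ndufaf4, the embryos and adults overlapped, and the log2 difference was −0.30 (SE 0.305, adjusted p = 0.426), and 0.61 (adjusted p = 0.0299) after correction. Of the 8 factors 3 rose after correction (all genes: 20.0%): Ndufaf5, Ndufaf4 and Ndufaf1, the last named after its values were seen. Ndufaf4 was not called with the median length (0.49, adjusted p = 0.0777).

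Complex II, succinate dehydrogenase, is the enzyme shared by the respiratory chain and the tricarboxylic acid cycle, and its 4 subunits did not move together. Sdhb, the iron-sulphur subunit (chr4:140961203-140979193, plus strand), was at 227 to 705 CPM in the embryos (median 519.9) against 83.01 and 73.00 in the adults. For Sdhb, every embryo was above both adults, and the log2 difference was 2.64 (SE 0.452, adjusted p = 0.000316), and 1.20 (adjusted p = 0.00156) after correction. Sdhc, a membrane anchor and the least abundant subunit per kb in the adult, was at 183 to 372 CPM in the embryos (median 272) against 113 and 96.3 in the adults. For Sdhc, every embryo was above both adults, and the log2 difference was 1.41 (SE 0.304, adjusted p = 0.00164), and 1.49 (adjusted p = 0.00107) after correction. Both rose with and without correction. Sdha, the flavoprotein that oxidises succinate and the most abundant subunit per kb in the adult (chr13:74322254-74350280, minus strand), was at 128 to 219.8 CPM in the embryos (median 205) against 288 and 287 in the adults. For Sdha, every embryo was below both adults, and the log2 difference was −0.58 (SE 0.248, adjusted p = 0.0633), and −0.62 (adjusted p = 0.00718) after correction. Sdha therefore fell after correction, and it also fell by DESeq2 (−0.61, adjusted p = 0.0315). The catalytic flavoprotein thus differed in direction from Sdhb and Sdhc.

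All 8 nuclear members of complex III rose (all genes: 24.0%) and were higher in every embryo than in both adults. Uqcrh, the hinge protein that helps dock cytochrome c and the most abundant member per kb in the adult, was at 493 to 1413 CPM in the embryos (median 610.1) against 152 and 142 in the adults. For Uqcrh, every embryo was above both adults, and the log2 difference was 2.54 (SE 0.489, adjusted p = 0.000733), and 0.50 (adjusted p = 0.0725) after correction. Uqcrq, a small membrane subunit and the least abundant per kb in the adult, was at 131 to 501 CPM in the embryos (median 293) against 64.7 and 62.2 in the adults. For Uqcrq, every embryo was above both adults, and the log2 difference was 2.36 (SE 0.492, adjusted p = 0.00129), and 1.42 (adjusted p = 0.0116) after correction. Uqcrq kept its call with both lengths in the correction, and Uqcrh with the median length. Log2 differences in the complex ran from 0.71 to 2.54. After correction Uqcrq and the core proteins Uqcrc1 and Uqcrc2, the last 2 named after their values were seen, rose (Uqcrc1 not with the median length). By edgeR 0 fell, with 0 lower at an unadjusted p below 0.05. Of all genes 20.0% rose and 27.0% fell after correction.

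Complex IV, cytochrome c oxidase, has subunits with alternative isoforms, some of them known from lung, muscle or testis or from tissue low in oxygen. Ndufa4l2, a relative of the subunit Ndufa4 known to be induced by hypoxia (chr10:127514967-127517154, plus strand), was at 21.8 to 88.2 CPM in the embryos (median 57.4) against 2.81 and 1.49 in the adults. For Ndufa4l2, every embryo was above both adults, and the log2 difference was 4.72 (SE 0.615, adjusted p = 3.66e-05), and 3.19 (adjusted p = 0.000464) after correction. Cox4i2, the form of subunit 4 known from lung and from hypoxic cells (chr2:152754173-152765037, plus strand), was at 11.6 to 27.3 CPM in the embryos (median 18.6) against 1.11 and 1.07 in the adults. For Cox4i2, every embryo was above both adults, and the log2 difference was 4.03 (SE 0.497, adjusted p = 2.26e-05), and 2.17 (adjusted p = 0.000131) after correction. These were the largest differences among the 101 tested members and the 2 that rose by more than 4-fold after correction. Ndufa4, the common form, was at 529 to 1444 CPM in the embryos (median 706) against 143 and 138 in the adults. For Ndufa4, every embryo was above both adults, and the log2 difference was 2.61 (SE 0.464, adjusted p = 0.000411), and 1.19 (adjusted p = 0.00051) after correction. Cox4i1, the common form of subunit 4 and the most abundant complex IV gene per kb in the adult, was at 487 to 1958 CPM in the embryos (median 1247) against 219 and 194 in the adults. For Cox4i1, every embryo was above both adults, and the log2 difference was 2.60 (SE 0.526, adjusted p = 0.00104), and 0.72 (adjusted p = 0.0185) after correction. All 4 genes rose with and without correction.

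The less abundant form gained share in both families. Per kb, Cox4i2 made up 1.06 to 2.43% of the Cox4i transcripts in the embryos against 0.527 and 0.572% in the adults. Ndufa4l2 made up 2.23 to 8.48% of the pair with Ndufa4 in the embryos against 1.27 and 0.698% in the adults. In both families every embryo was above both adults, and the common form still made up at least 91.5% of the family in every library. Counts behind the rarer forms were low in the adult, at 46 and 38 for Cox4i2 and 116 and 53 for Ndufa4l2.

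The other isoform families of complex IV kept their common forms at both stages. Cox7a1, the heart and muscle form of subunit 7a, was at 3.94 to 19.3 CPM in the embryos (median 8.11) against 1.53 and 1.35 in the adults. For Cox7a1, every embryo was above both adults, and the log2 difference was 2.74 (SE 0.630, adjusted p = 0.00249), and 0.17 (adjusted p = 0.683) after correction. As a share of Cox7a transcripts per kb it was 1.87 to 3.33% in the embryos against 1.93 and 1.63% in the adults, with overlap. Cox7a2, the common form of subunit 7a, was at 294 to 938 CPM in the embryos (median 490.3) against 130.3 and 137 in the adults. For Cox7a2, every embryo was above both adults, and the log2 difference was 2.15 (SE 0.453, adjusted p = 0.00138), and 0.19 (adjusted p = 0.438) after correction. Cox6b1, the common form of subunit 6b, was at 468 to 1110.03 CPM in the embryos (median 667) against 147 and 127 in the adults. For Cox6b1, every embryo was above both adults, and the log2 difference was 2.51 (SE 0.414, adjusted p = 0.00024), and 0.57 (adjusted p = 0.0295) after correction. Cox6b2, the testis form, was at 5.997 to 45.97 CPM in the embryos (median 13.2) against 4.36 and 4.52 in the adults. For Cox6b2, every embryo was above both adults, and the log2 difference was 2.18 (SE 0.672, adjusted p = 0.0146), and −0.07 (adjusted p = 0.897) after correction. Cox6b2 made up 1.23 to 4.38% of the pair per kb in the embryos against 3.03 and 3.63% in the adults, with overlap, and it was not called without adult 1 (2.13, adjusted p = 0.0941) or adult 2 (2.19, adjusted p = 0.0899).

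Subunits 6a and 8 were represented by their common forms. Cox6a1, the common form of subunit 6a, was at 158 to 347 CPM in the embryos (median 283) against 119 and 97.5 in the adults. For Cox6a1, every embryo was above both adults, and the log2 difference was 1.34 (SE 0.326, adjusted p = 0.0035), and −0.70 (adjusted p = 0.0113) after correction. Cox8a, the common form of subunit 8, was at 226 to 684 CPM in the embryos (median 339) against 133 and 116 in the adults. For Cox8a, every embryo was above both adults, and the log2 difference was 1.72 (SE 0.405, adjusted p = 0.00291), and −0.42 (adjusted p = 0.105) after correction. Both had negative values after correction, and Cox6a1 fell, but not with the median length. Cox6a1 was not called without adult 2 (1.19, adjusted p = 0.0683). Cox8b reached 0.222 and 0.222% of the Cox8 transcripts per kb in the adults, and with no filter on low counts it was called higher in the adult. After correction 9 of the 16 tested nuclear members of complex IV rose and Cox6a1 fell (all genes: 20.0% and 27.0%).

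**Figure D4:**
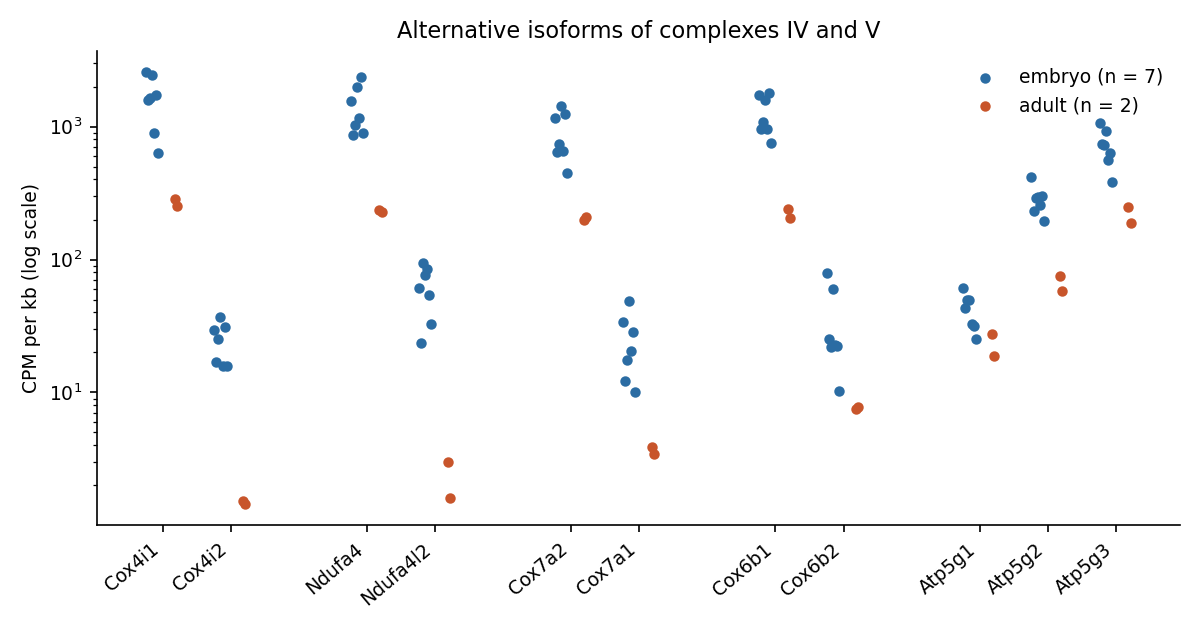
CPM per kb on a log axis of the alternative isoforms of complexes IV and V, 1 point for each of the 7 embryo (blue) and 2 adult (orange) libraries. Of the 11 genes plotted, which leave out Cox8b with its few counts, Cox4i2 and Ndufa4l2 showed the widest gaps between the stages, at 24.5 and 60.99 CPM per kb in the mean embryo against 1.49 and 2.30 in the mean adult, and the stages overlapped for Atp5g1.

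Complex V, the ATP synthase, had 16 risen members of 17 tested (all genes: 24.0%). Atp5k, the small subunit e of the membrane part (chr5:108433244-108434448, minus strand), was at 133 to 481 CPM in the embryos (median 233) against 39.7 and 34.9 in the adults. For Atp5k, every embryo was above both adults, and the log2 difference was 3.01 (SE 0.541, adjusted p = 0.000449), and 0.41 (adjusted p = 0.106) after correction. Atp5o, subunit OSCP of the stalk, was at 82.2 to 279.5 CPM in the embryos (median 172) against 28.5 and 19.4 in the adults. For Atp5o, every embryo was above both adults, and the log2 difference was 2.85 (SE 0.453, adjusted p = 0.00018), and 1.10 (adjusted p = 0.00257) after correction. These were its largest differences, and Atp5o kept its call after correction. Atp5e, the epsilon subunit of the rotor and the most abundant nuclear member per kb in both stages, was at 355 to 1589.5 CPM in the embryos (median 611) against 189 and 165 in the adults. For Atp5e, every embryo was above both adults, and the log2 difference was 2.31 (SE 0.583, adjusted p = 0.00456), and −0.22 (adjusted p = 0.447) after correction. Per kb Atp5e reached 2089 CPM per kb in the embryo and 421 in the adult, and it was not called without adult 2 (2.20, adjusted p = 0.0543). Atp5s, a coupling factor and the least abundant complex V gene per kb in the adult, was at 4.25 to 12.97 CPM in the embryos (median 10.6) against 15.5 and 17.4 in the adults. For Atp5s, every embryo was below both adults, and the log2 difference was −0.69 (SE 0.361, adjusted p = 0.125), and −0.69 (adjusted p = 0.201) after correction. Atp5s was the single member of the complex not called. After correction 7 rose and 0 fell in edgeR (all genes: 20.0% and 27.0%), with 0 lower at an unadjusted p below 0.05.

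The membrane ring of the synthase is built from 1 protein that Atp5g1, Atp5g2 and Atp5g3 encode with different import signals. Atp5g1, the least abundant of the 3 per kb, was at 119 to 289 CPM in the embryos (median 205) against 129 and 88.8 in the adults. For Atp5g1, the embryos and adults overlapped, and the log2 difference was 0.86 (SE 0.345, adjusted p = 0.0492), and 1.65 (adjusted p = 0.00704) after correction. The principal transcript of Atp5g1 was taken as 4715 bases, and its level per kb and the 1.65 depend on that length. Atp5g2, the second, was at 143 to 305 CPM in the embryos (median 214) against 55.3 and 42.4 in the adults. For Atp5g2, every embryo was above both adults, and the log2 difference was 2.08 (SE 0.332, adjusted p = 0.000181), and 0.25 (adjusted p = 0.367) after correction. Atp5g3, the most abundant, was at 276 to 763 CPM in the embryos (median 527) against 178 and 136 in the adults. For Atp5g3, every embryo was above both adults, and the log2 difference was 1.72 (SE 0.384, adjusted p = 0.00201), and −0.01 (adjusted p = 0.975) after correction. Per kb, Atp5g1 made up 3.30 to 4.61% of the family in the embryos against 7.82 and 7.13% in the adults, Atp5g2 22.8 to 32.4% and 21.6 and 21.96%, and Atp5g3 63.4 to 72.96% and 70.6 and 70.9%, and with the median length Atp5g1 made up 5.54 to 7.68% against 12.8 and 11.7%. Every embryo was below both adults in the Atp5g1 share and above both in the Atp5g2 share, and the Atp5g3 shares overlapped, but these shares are not corrected, and after correction Atp5g1 had the largest log2 difference of the 3. The call of Atp5g1 was lost without embryo 2 (0.86, adjusted p = 0.0664), embryo 3 (0.87, adjusted p = 0.0564), embryo 4 (0.86, adjusted p = 0.0548), adult 1 (1.14, adjusted p = 0.0926) or adult 2 (0.61, adjusted p = 0.347), without embryos 1 and 4 (0.69, adjusted p = 0.0726), with library size alone (0.60, adjusted p = 0.129) and with DESeq2's size factors (0.84, adjusted p = 0.058). Of the 75-base stretches of the Atp5g2 transcript, 86.9% also occur in another annotated gene.

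Most tested nuclear members differ in sequence from other annotated genes, since 63 of the 89 share no exact 75-base stretch with one and 7 share over 25% of theirs. Near-identical stretches and copies outside annotated transcripts were not searched, so the absence of a shared stretch does not show that a gene is measured well.

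Nuclear respiratory genes are known for promoters that bind NRF1, the ETS family factor GABP and YY1, so the promoters of members were searched for 1 short motif of each and for the core of the hypoxia response element. Promoters were taken from RefSeq (GRCm38.p6) as 250 bases before and 50 after each start, and 76 of the 94 nuclear members matched, with 81 promoters. Both strands were searched, and the NRF1 motif is nearly its own reverse complement, so that 1 stretch can match on both. GCGCATGCG (NRF1) occurred in 10 member promoters, or 12.3%, against 3.04% of the 15811 promoters of tested genes and 1.75% of all 32851. GCCATNTT (YY1) occurred in 19, or 23.5%, against 7.14% and 6.05%. CCGGAAG (ETS) occurred in 18, or 22.2%, against 14.8% and 8.86%, and ACGTG, the hypoxia response core, in 20, or 24.7%, against 23.9% and 19.6%. Both NRF1 and ETS motifs occurred in 4 member promoters, those of Atp5k, Atp5l, Cox6a1 and Uqcr11, or 4.94% against 0.645% and 0.341%. A match describes letters in this window and is no evidence of binding. These 4 are printed because they hold both motifs, 5′ to 3′ on the strand of the gene, with NRF1 and ETS matches in capitals: Atp5k at chr5:108434350-108434649 on the minus strand, Atp5l at chr9:44920693-44920992 on the minus strand, Cox6a1 at chr5:115348909-115349208 on the minus strand and Uqcr11 at chr10:80406772-80407071 on the minus strand. The promoter of Ndufa3, the accessory subunit with the largest difference, at chr7:3617123-3617422 on the plus strand, is printed for its YY1 match, in capitals.
Atp5k: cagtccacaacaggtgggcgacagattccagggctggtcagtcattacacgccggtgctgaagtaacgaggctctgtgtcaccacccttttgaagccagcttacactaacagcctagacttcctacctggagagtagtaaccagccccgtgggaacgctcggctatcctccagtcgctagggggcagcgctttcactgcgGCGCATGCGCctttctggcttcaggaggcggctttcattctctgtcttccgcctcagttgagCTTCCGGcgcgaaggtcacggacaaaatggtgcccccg
Atp5l: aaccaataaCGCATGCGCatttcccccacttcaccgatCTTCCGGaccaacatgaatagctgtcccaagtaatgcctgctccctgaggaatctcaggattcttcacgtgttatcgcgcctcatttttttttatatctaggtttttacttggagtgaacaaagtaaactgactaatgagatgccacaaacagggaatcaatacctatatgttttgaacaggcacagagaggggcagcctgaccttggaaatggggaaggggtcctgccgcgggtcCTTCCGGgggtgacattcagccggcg
Cox6a1: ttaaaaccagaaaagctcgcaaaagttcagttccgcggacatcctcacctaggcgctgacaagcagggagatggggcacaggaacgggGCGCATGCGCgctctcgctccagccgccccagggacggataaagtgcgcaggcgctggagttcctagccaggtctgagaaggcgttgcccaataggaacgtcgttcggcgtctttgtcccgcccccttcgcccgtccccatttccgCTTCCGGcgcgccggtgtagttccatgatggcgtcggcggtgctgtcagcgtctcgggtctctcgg
Uqcr11: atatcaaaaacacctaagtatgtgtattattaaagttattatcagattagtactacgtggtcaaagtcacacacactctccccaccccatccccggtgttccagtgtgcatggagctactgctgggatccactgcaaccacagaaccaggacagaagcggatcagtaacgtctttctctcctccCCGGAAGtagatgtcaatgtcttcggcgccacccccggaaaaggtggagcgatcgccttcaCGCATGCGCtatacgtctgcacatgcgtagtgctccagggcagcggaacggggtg
Ndufa3: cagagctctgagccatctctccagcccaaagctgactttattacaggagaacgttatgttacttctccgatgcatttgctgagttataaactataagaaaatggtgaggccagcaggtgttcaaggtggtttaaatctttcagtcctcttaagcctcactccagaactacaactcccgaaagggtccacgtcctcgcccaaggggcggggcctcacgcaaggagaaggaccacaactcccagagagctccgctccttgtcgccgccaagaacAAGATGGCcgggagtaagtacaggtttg

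Genes behind these promoters did not share a size of difference. Atp5k had the largest log2 difference of its complex (3.01) and Cox6a1 the smallest among the tested nuclear members of complex IV (1.34). Both of these promoters hold the NRF1 motif on both strands and 1 ETS motif. Between them lay Atp5l (2.17) and Uqcr11 (2.26), whose promoters also hold both motifs.

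The 13 protein-coding genes of the mitochondrial genome are read from long common transcripts, yet their counts here differed between genes, and part of the genome could not be measured. STAR counts a read pair on a gene only where the pair aligns to a single place, and a stretch of chromosome 1 holds a near-perfect nuclear copy of a run of mitochondrial genes. At least 97% of the 75-base stretches of mt-Co2, mt-Atp6, mt-Co3, mt-Nd3 and mt-Nd4l also occur in that copy. In GRCm38 the copy of mt-Co3, Gm28437, is identical over 783 aligned bases, and the copy of mt-Nd3, Gm28438, differs at 1 of 345. The copies of mt-Co2 (681 bases), mt-Atp6 (678) and mt-Nd4l (294) are identical throughout. The copy covers 63.6% of mt-Nd4 without a difference, so its counts come from read pairs that reach into the rest of the gene. On mt-Co1 the copy covers 31.8% and differs at 6 of 492 aligned bases. Of the 75-base stretches of mt-Co1, 39.8% also occur in another annotated gene. The 7 genes mt-Nd1, mt-Nd2, mt-Co1, mt-Nd4, mt-Nd5, mt-Nd6 and mt-Cytb were taken as measurable, and mt-Atp8, with no shared stretch but only 2 to 17 counts in the embryos against 8 and 6 in the adults, was not.

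The mt-Co3 stretch printed here shows why read pairs from these genes seldom have a single place, 75 bases being the read length. Of the 274 such stretches of mt-Nd3, 268 are shared with its copy. The printed mt-Nd3 stretch is not shared, since it holds the base that differs. The mt-Co3 stretch is at chrM:8961-9035 on the plus strand and its copy in Gm28437 at chr1:24613543-24613617 on the minus strand, and the mt-Nd3 stretch is at chrM:9459-9533 on the plus strand and its copy in Gm28438 at chr1:24613045-24613119 on the minus strand, all in GRCm38. Capitals mark the base that differs between mt-Nd3 and its copy, and the mt-Co3 pair has none.
mt-Co3: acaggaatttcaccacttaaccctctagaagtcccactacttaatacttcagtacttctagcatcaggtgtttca
Gm28437: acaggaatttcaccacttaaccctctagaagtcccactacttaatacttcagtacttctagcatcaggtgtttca
mt-Nd3: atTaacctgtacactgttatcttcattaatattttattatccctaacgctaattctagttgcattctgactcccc
Gm28438: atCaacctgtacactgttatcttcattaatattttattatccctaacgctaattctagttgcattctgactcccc

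Before correction and with strand-specific counts, mt-Nd5 and mt-Nd4 had the lowest log2 differences of the measurable genes. mt-Nd5, a proton-pumping subunit of complex I (chrM:11742-13565, plus strand), was at 619 to 1831 CPM in the embryos (median 686) against 2512 and 2431 in the adults. For mt-Nd5, every embryo was below both adults, and the log2 difference was −1.31 (SE 0.391, adjusted p = 0.0123), and −1.19 (adjusted p = 0.000532) after correction. mt-Nd5 was the single measurable gene called, and it was not called without adult 1 (−1.30, adjusted p = 0.0697), without adult 2 (−1.34, adjusted p = 0.0644) or with the median length in the correction (−0.60, adjusted p = 0.0675). mt-Nd4, another proton-pumping subunit, was at 559 to 1710.3 CPM in the embryos (median 1039) against 1828 and 1937 in the adults. For mt-Nd4, every embryo was below both adults, and the log2 difference was −0.74 (SE 0.400, adjusted p = 0.133), and −0.87 (adjusted p = 0.00704) after correction. mt-Nd4 was also called without embryos 1 and 4 (−0.94, adjusted p = 0.0498) and with library size alone (−1.02, adjusted p = 0.0203), but not with the median length in the correction (−0.19, adjusted p = 0.504). For each 100 counts of mt-Co1 there were 3.53 to 7.47 counts of mt-Nd5 in the embryos against 24.6 and 20.1 in the adults, and 4.60 to 7.93 counts of mt-Nd4 against 17.9 and 16.04. These ratios within a library, which do not depend on scaling between libraries, did not overlap between the stages.

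The other 5 measurable genes were not called before correction or with the principal length in it. mt-Co1, the catalytic subunit of complex IV and the gene with the most mitochondrial counts, was at 10188 to 25697 CPM in the embryos (median 17616) against 10233 and 12077 in the adults. For mt-Co1, the embryos and adults overlapped, and the log2 difference was 0.68 (SE 0.427, adjusted p = 0.193), and 0.54 (adjusted p = 0.0657) after correction. mt-Nd1, a complex I subunit near the ubiquinone site, was at 3053 to 8935 CPM in the embryos (median 6462) against 3438 and 3368 in the adults. For mt-Nd1, the embryos and adults overlapped, and the log2 difference was 0.85 (SE 0.432, adjusted p = 0.113), and 0.30 (adjusted p = 0.386) after correction. Both had a larger share of the measurable counts in every embryo than in the adults. mt-Nd2, another membrane subunit of complex I, was at 935 to 3159 CPM in the embryos (median 1255) against 1592 and 1493 in the adults. For mt-Nd2, the embryos and adults overlapped, and the log2 difference was 0.31 (SE 0.486, adjusted p = 0.611), and −0.20 (adjusted p = 0.377) after correction. mt-Cytb, the cytochrome b of complex III, was at 3144 to 9814 CPM in the embryos (median 5853) against 5454 and 5538 in the adults. For mt-Cytb, the embryos and adults overlapped, and the log2 difference was 0.19 (SE 0.424, adjusted p = 0.732), and −0.22 (adjusted p = 0.589) after correction. For these 2 genes the embryos spread over a wider range than the distance between the stages. mt-Nd6, the one protein encoded on the other strand, was at 10.6 to 26.5 CPM in the embryos (median 15.3) against 17.6 and 23.01 in the adults. For mt-Nd6, the embryos and adults overlapped, and the log2 difference was −0.21 (SE 0.352, adjusted p = 0.637), and −1.07 (adjusted p = 0.0649) after correction. With counts of both strands pooled mt-Nd6 was called lower in the embryo (−1.37, adjusted p = 0.018). Pooled counts also take in read pairs from the strand opposite mt-Nd6, so this call does not concern its transcripts alone. With the median length in the correction mt-Co1 (1.17, adjusted p = 0.00336), mt-Nd1 (1.11, adjusted p = 0.00349) and mt-Nd2 (0.62, adjusted p = 0.0441) rose, and mt-Co1 also rose after correction without embryos 1 and 4 (0.70, adjusted p = 0.0132).

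The genes shared with the nuclear copy had few unique counts, and their differences cannot be read as differences of the mitochondrial transcript. mt-Co3, a core subunit of complex IV, had 136 to 332 counts in the embryos against 69 and 68 in the adults, and mt-Nd3, a complex I subunit, had 36 to 105 counts in the embryos against 9 and 20 in the adults. For mt-Co3, every embryo was above both adults, and the log2 difference was 2.56 (SE 0.565, adjusted p = 0.0019), and 1.77 (adjusted p = 0.00907) after correction. For mt-Nd3, every embryo was above both adults, and the log2 difference was 2.93 (SE 0.805, adjusted p = 0.00757), and 1.57 (adjusted p = 0.0671) after correction, with no call without adult 1 (2.38, adjusted p = 0.098). Of the copies, Gm28437 had 44 to 112 counts in the embryos against 27 and 25 in the adults, and those of mt-Co2 and mt-Atp6 had at most 33 counts in any library. mt-Co2 had a log2 difference of 1.73 (SE 0.749, adjusted p = 0.0666), mt-Atp6 of 1.72 (SE 0.918, adjusted p = 0.131) and mt-Atp8 of 1.12 (SE 1.15, adjusted p = 0.431). Of these, mt-Co2 was called without embryo 3 (1.92, adjusted p = 0.041), by DESeq2 and with the median length in the correction.

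**Figure D5:**
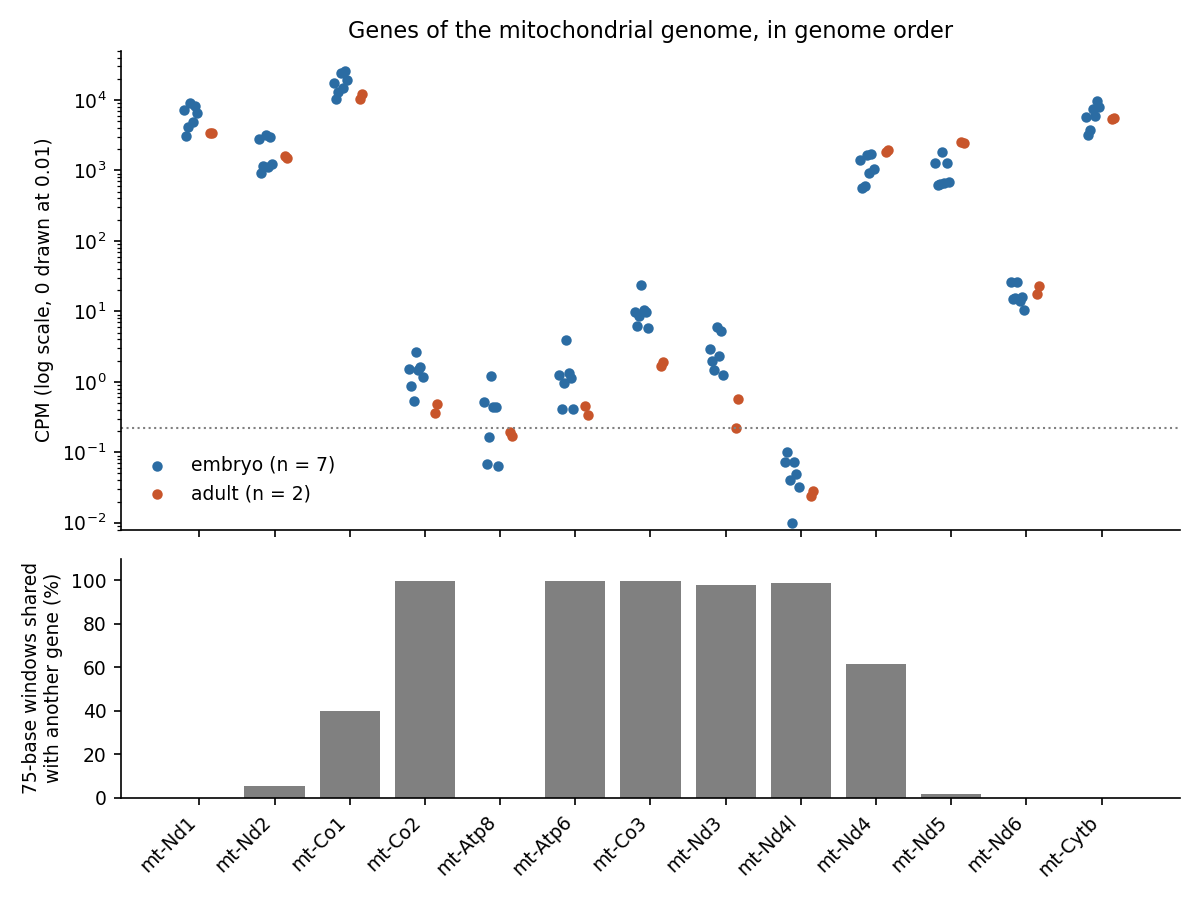
Top, CPM of each mitochondrial gene in genome order on a log axis in the 7 embryo (blue) and 2 adult (orange) libraries, with a dotted line at the highest floor of 3 counts over the libraries (0.220 CPM) and values of 0 drawn at 0.01, and bottom, the percent of each gene's 75-base stretches found in another gene. Genes with nearly all stretches shared had at most 23.4 CPM, and mt-Nd5 was higher in both adults than in every embryo.

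Other mitochondrial pathways held genes that rose and genes that fell. Among enzymes of the tricarboxylic acid cycle and pyruvate dehydrogenase, 6 of 18 tested genes rose and 3 fell (all genes: 24.0% and 27.4%), with a median log2 difference of 0.62, and 4 rose and 3 fell after correction (20.0% and 27.0%), with a median of −0.05. Idh2, the NADP-dependent isocitrate dehydrogenase, was at 214 to 443 CPM in the embryos (median 340.02) against 71.5 and 56.5 in the adults, and every embryo was above both adults, with a log2 difference of 2.37 (SE 0.357, adjusted p = 0.000118), and 1.44 (adjusted p = 0.000353) after correction. Cs, citrate synthase, was at 182 to 309 CPM in the embryos (median 211) against 111 and 94.9 in the adults, and every embryo was above both adults, with a log2 difference of 1.16 (SE 0.281, adjusted p = 0.00353), and 0.98 (adjusted p = 0.0014) after correction. The enzymes with the largest falls act later in the cycle. Ogdh, a subunit of the 2-oxoglutarate dehydrogenase, was at 88.1 to 186 CPM in the embryos (median 126) against 344 and 319.9 in the adults, and every embryo was below both adults, with a log2 difference of −1.32 (SE 0.290, adjusted p = 0.0018), and −1.17 (adjusted p = 0.000893) after correction. Sucla2, the ATP-forming beta subunit of succinyl-CoA ligase, was at 34.2 to 74.98 CPM in the embryos (median 43.7) against 85.99 and 93.5 in the adults, and every embryo was below both adults, with a log2 difference of −0.93 (SE 0.273, adjusted p = 0.0112), and −0.82 (adjusted p = 0.0103) after correction. The count of genes that rose was 10 without embryo 1, 3 without adult 1 and 1 without adult 2, and of genes that fell 6 without embryo 7 and 1 when either adult was left out. Cs was not called without adult 2 (1.04, adjusted p = 0.0732), nor Sucla2 without adult 1 (−1.01, adjusted p = 0.0573) or adult 2 (−0.88, adjusted p = 0.0988).

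Among the mobile electron carriers, the enzymes that make ubiquinone and the carriers of the inner membrane, 6 of 16 tested genes rose and 2 fell (all genes: 24.0% and 27.4%), with a median log2 difference of 0.64, and 3 rose and 4 fell after correction (20.0% and 27.0%), with a median of −0.11. Cycs, cytochrome c, was at 74.1 to 151 CPM in the embryos (median 89.2) against 34.9 and 31.6 in the adults, and every embryo was above both adults, with a log2 difference of 1.63 (SE 0.324, adjusted p = 0.000904), and 2.30 (adjusted p = 5.21e-05) after correction. Coq6, a hydroxylase of ubiquinone synthesis, was at 28.3 to 81.2 CPM in the embryos (median 56.4) against 18.3 and 16.3 in the adults, and every embryo was above both adults, with a log2 difference of 1.68 (SE 0.378, adjusted p = 0.00212), and 0.75 (adjusted p = 0.0246) after correction. Both rose with and without correction. Ucp2, an uncoupling protein relative, was at 86.7 to 334 CPM in the embryos (median 194) against 531 and 446 in the adults, and every embryo was below both adults, with a log2 difference of −1.28 (SE 0.400, adjusted p = 0.0155), and −1.20 (adjusted p = 0.0206) after correction. Coq8a, an atypical kinase of ubiquinone synthesis, was at 7.34 to 17.8 CPM in the embryos (median 12.3) against 30.5 and 22.8 in the adults, and every embryo was below both adults, with a log2 difference of −1.12 (SE 0.311, adjusted p = 0.00804), and −0.97 (adjusted p = 0.0172) after correction. In this list 3 genes rose without adult 1 and 2 without adult 2, and 1 fell without adult 2. Ucp2 was not called without adult 1 (−1.17, adjusted p = 0.106) or adult 2 (−1.41, adjusted p = 0.0532), and Coq8a was not called without adult 1 (−0.92, adjusted p = 0.126).

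Assembly factors of the complexes that do not carry a member's name moved in part with them: 20 of 39 tested genes rose and 2 fell (all genes: 24.0% and 27.4%), with a median log2 difference of 0.87, and 11 rose and 3 fell after correction (20.0% and 27.0%), with a median of 0.26. Uqcc2, which helps translate and assemble cytochrome b, was at 105 to 501 CPM in the embryos (median 239.6) against 38.2 and 35.5 in the adults, and every embryo was above both adults, with a log2 difference of 2.98 (SE 0.587, adjusted p = 0.000858), and 0.65 (adjusted p = 0.027) after correction. Pet100, a complex IV assembly factor, was at 37.1 to 157 CPM in the embryos (median 78.7) against 12.4 and 14.2 in the adults, and every embryo was above both adults, with a log2 difference of 2.89 (SE 0.551, adjusted p = 0.000677), and 1.66 (adjusted p = 0.00571) after correction. These rose with and without correction. Cox17, a copper chaperone of complex IV, was at 1.04 to 2.71 CPM in the embryos (median 1.90) against 6.13 and 4.75 in the adults, and every embryo was below both adults, with a log2 difference of −1.55 (SE 0.454, adjusted p = 0.0109), and −1.05 (adjusted p = 0.0639) after correction. Ttc19, a complex III factor, was at 11.6 to 16.8 CPM in the embryos (median 12.4) against 28.7 and 33.3 in the adults, and every embryo was below both adults, with a log2 difference of −1.21 (SE 0.260, adjusted p = 0.00163), and −0.68 (adjusted p = 0.0252) after correction. Of this list 12 genes rose without adult 2, and 1 fell when either adult was left out. Cox17 was not called without adult 1 (−1.38, adjusted p = 0.126) or adult 2 (−1.74, adjusted p = 0.0505).

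Factors that replicate, transcribe and process the mitochondrial genome gave a mixed picture: 7 of 19 tested genes rose and 1 fell (all genes: 24.0% and 27.4%), with a median log2 difference of 0.59, and 7 rose and 1 fell after correction (20.0% and 27.0%), with a median of 0.35. Hsd17b10, a subunit of mitochondrial RNase P, was at 134 to 304 CPM in the embryos (median 252) against 34.9 and 34.7 in the adults, and every embryo was above both adults, with a log2 difference of 2.79 (SE 0.386, adjusted p = 6.1e-05), and 1.26 (adjusted p = 0.000268) after correction. Slirp, which stabilises mitochondrial mRNA together with Lrpprc, was at 103 to 251 CPM in the embryos (median 135) against 40.7 and 40.5 in the adults, and every embryo was above both adults, with a log2 difference of 2.05 (SE 0.410, adjusted p = 0.00095), and 2.36 (adjusted p = 0.000123) after correction. Lrpprc, the RNA-binding partner of Slirp, was at 12.8 to 33.9 CPM in the embryos (median 17.7) against 59.3 and 59.6 in the adults, and every embryo was below both adults, with a log2 difference of −1.57 (SE 0.311, adjusted p = 0.00092), and −0.97 (adjusted p = 0.00344) after correction. In this list 4 rose without adult 1 and 3 without adult 2, and 2 fell without embryo 7.

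Among regulators of nuclear respiratory genes, 2 of 11 tested genes rose and 5 fell (all genes: 24.0% and 27.4%), with a median log2 difference of −0.40, and 1 rose and 2 fell after correction (20.0% and 27.0%), with a median of 0.04. Ppargc1a, the coactivator PGC-1 alpha, was at 0.282 to 1.15 CPM in the embryos (median 0.659) against 8.80 and 9.44 in the adults, and every embryo was below both adults, with a log2 difference of −3.82 (SE 0.475, adjusted p = 2.39e-05), and −2.31 (adjusted p = 0.00122) after correction. Esrrg, an oestrogen-related receptor that works with it, was at 0.528 to 2.20 CPM in the embryos (median 1.20) against 10.7 and 11.2 in the adults, and every embryo was below both adults, with a log2 difference of −3.16 (SE 0.478, adjusted p = 0.000123), and −1.998 (adjusted p = 0.00173) after correction. These 2 fell with and without correction. Nrf1, the factor whose motif was searched above, was at 27.2 to 80.01 CPM in the embryos (median 52.2) against 20.96 and 19.2 in the adults, and every embryo was above both adults, with a log2 difference of 1.39 (SE 0.355, adjusted p = 0.00488), and 0.60 (adjusted p = 0.101) after correction. Gabpb1, a subunit of GABP, was at 22.3 to 35.7 CPM in the embryos (median 30.1) against 20.96 and 16.3 in the adults, and every embryo was above both adults, with a log2 difference of 0.69 (SE 0.272, adjusted p = 0.0464), and 0.92 (adjusted p = 0.00463) after correction. The count of genes that rose was 1 without embryo 2, 4, 5 or 6 or adult 1, and neither of the 2 was called without adult 2. Nrf1 was not called without adult 2 (1.32, adjusted p = 0.0652). Gabpb1 was not called without embryo 2 (0.69, adjusted p = 0.0629), embryo 4 (0.73, adjusted p = 0.0527), embryo 5 (0.70, adjusted p = 0.0664) or embryo 6 (0.69, adjusted p = 0.0511). The call was also lost with library size alone (0.48, adjusted p = 0.278), DESeq2's size factors (0.66, adjusted p = 0.0517) or no filter on low counts (0.70, adjusted p = 0.114). Nor was Gabpb1 called without adult 1 (0.86) or adult 2 (0.51).

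Genes of the outer membrane, the protein import channel and the matrix chaperones, often read as measures of mitochondrial mass, rose in part: 8 of 13 tested genes rose and 2 fell (all genes: 24.0% and 27.4%), with a median log2 difference of 0.85, and 6 rose and 1 fell after correction (20.0% and 27.0%), with a median of 0.32. Hspe1, a matrix chaperonin, was at 225 to 567 CPM in the embryos (median 265) against 48.1 and 54.4 in the adults, and every embryo was above both adults, with a log2 difference of 2.72 (SE 0.432, adjusted p = 0.000181), and 0.96 (adjusted p = 0.00735) after correction. Tomm22, a receptor of the import channel, was at 144 to 298 CPM in the embryos (median 239) against 49.1 and 41.5 in the adults, and every embryo was above both adults, with a log2 difference of 2.35 (SE 0.347, adjusted p = 0.000104), and 1.83 (adjusted p = 0.000111) after correction. These rose with and without correction. Tomm70a, another import receptor, was at 40.96 to 103 CPM in the embryos (median 46.2) against 133 and 116 in the adults, and every embryo was below both adults, with a log2 difference of −1.14 (SE 0.312, adjusted p = 0.00729), and 0.32 (adjusted p = 0.389) after correction. Hspa9, the matrix chaperone mortalin, was at 102 to 176 CPM in the embryos (median 123) against 242 and 228 in the adults, and every embryo was below both adults, with a log2 difference of −0.87 (SE 0.242, adjusted p = 0.00835), and −0.59 (adjusted p = 0.0224) after correction. In this list 5 rose without adult 2, and 1 fell without adult 2. Tomm70a was not called without adult 1 (−1.06, adjusted p = 0.0713), nor Hspa9 without adult 1 (−0.84, adjusted p = 0.0777) or adult 2 (−0.92, adjusted p = 0.0576) or with the median length in the correction (−0.17, adjusted p = 0.458).

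Before correction most ribosomal protein genes of both compartments, whose transcripts are also short, rose. Of 77 tested mitochondrial ribosomal protein genes, 72 rose and 0 fell in edgeR (all genes: 24.0% and 27.4%). The counts were 73 and 1 at an unadjusted p below 0.05 and 72 and 0 by DESeq2, and the median log2 difference was 1.70. After correction 43 rose and Mrps12, named after its values were seen, fell (all genes: 20.0% and 27.0%), with a median of 0.60. Before correction 1 fell without embryo 6 or without embryo 7. Mrpl12, a protein of the large mitochondrial subunit, was at 122 to 497 CPM in the embryos (median 287) against 39.7 and 39.1 in the adults, and every embryo was above both adults, with a log2 difference of 2.94 (SE 0.524, adjusted p = 0.00042), and 1.63 (adjusted p = 0.00127) after correction. Of 88 tested cytosolic ribosomal protein genes, 83 rose and 0 fell in edgeR (all genes: 24.0% and 27.4%). The counts were 84 and 0 at an unadjusted p below 0.05 and 83 and 0 by DESeq2. The median was 2.73, or 1.08 after correction, when 70 rose and 2 fell (all genes: 20.0% and 27.0%). The 2 that fell were Rpl36al and Rps10, named after their values were seen. In both families the median lay above that of all tested genes with and without correction. Rplp0, a stalk protein of the large subunit, was at 2069 to 5369 CPM in the embryos (median 4375) against 394 and 270.4 in the adults, and every embryo was above both adults, with a log2 difference of 3.56 (SE 0.483, adjusted p = 5.23e-05), and 2.37 (adjusted p = 7.99e-05) after correction.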

How the data were processed

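The authors trimmed reads with Trimmomatic 0.39 and aligned them to GRCm38/mm10 with STAR 2.7.5b, and the deposited values are raw strand-specific counts of read pairs per gene (Ensembl 96, GENCODE mouse release 21). Members and lists were chosen with earlier results of these data known. Genes averaging at least 5 counts were fitted in edgeR 4.0.16 (R 4.3.3) with TMM scaling, stage as the single term, quasi-likelihood F tests and Benjamini-Hochberg adjustment over 19371 genes, and again in DESeq2 1.42.0. Each SE was derived from the edgeR fit as the absolute log2 difference divided by the square root of its F statistic. The correction fitted splines with 4 degrees of freedom of transcript length and GC content in each library over genes averaging at least 50 counts, and it used the APPRIS principal transcript in place of the planned median coding length, a choice made after seeing the data. Where several transcripts of a gene ranked equally in APPRIS, the longest was taken. Levels per kb use the same length, and in 44 of 94 nuclear members the lengths by different definitions differ by more than 2 times. Sums, shares and sequences were computed in Python 3.11.15 with numpy 2.4.6, pandas 2.3.3 and scipy 1.17.1, and plots in matplotlib 3.10.9. Genes were named by rule: all mitochondrial members and isoform partners; in each group the 2 largest called differences each way, the most and least abundant per kb in the adult and the smallest difference without a call; in each list the 2 largest called differences each way. Genes named otherwise were chosen after their values were seen. Some genes of these lists are not reported here. Marker lists covered Rathke's pouch, hormone cells, red blood cells, endothelium, connective tissue, macrophages, posterior lobe and neural tissue, skeletal muscle, cartilage and proliferation.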

Additional observations from a re-analysis of the deposited data

Results flagged for a closer look

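Of 121 groups of 7 embryo values examined, 7 held an embryo whose gap to its nearest neighbour was large against the whole range, and chance gives such a gap in about 1 in 20 groups. Embryo 4 was high for 3 mitochondrial genes with few unique counts: mt-Co3 at 23.4 CPM, where the other 6 embryos had 5.77 to 10.5, mt-Atp6 at 3.88 CPM, where the other 6 embryos had 0.405 to 1.34, and mt-Atp8 at 1.20 CPM, where the other 6 embryos had 0.0641 to 0.512. Embryo 7 was high for Sucla2, at 74.98 CPM, where the other 6 embryos had 34.2 to 49.2, and for Tomm70a, at 103 CPM, where the other 6 embryos had 40.96 to 61.2. Embryo 1 was low for Atp5s, at 4.25 CPM, where the other 6 embryos had 9.38 to 12.97. Embryo 2 had the largest sum of posterior lobe and neural markers, at 313 CPM, where the other 6 embryos had 83.1 to 182. The causes were not tested.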

How the results depend on the processing

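Leaving out each embryo in turn gave 80 to 83 nuclear members that rose, 0 or 1 that fell and medians of 1.85 to 2.03. In those fits 2 or 3 mitochondrial members rose and 1 fell. Of all genes, 4396 to 5192 rose and 4821 to 5526 fell in those fits, of 19388 to 19442 tested. Where an adult was left out, the lone adult was assumed to vary like the embryos. Fewer members and fewer of all genes were then called, and the nuclear median was 1.92 without adult 1 and 1.89 without adult 2. With DESeq2's size factors and with the DESeq2 test 2 nuclear members fell, and with no filter on low counts 1 fell. With a fold change above 4, 40 nuclear members rose and 0 mitochondrial members fell. Library size alone moved the median of all genes by −0.22, to −0.26, and with it, with unstranded counts and without embryos 1 and 4, 2 mitochondrial members fell. A block on replicate number, fitted to embryos and adults 1 and 2 alone, gave 80 nuclear members that rose, 0 that fell and a median of 1.98, and 1 mitochondrial member that rose, 2 that fell and a median of 0.26; it moved the median of all genes by −0.21, to −0.25, and the numbers do not pair animals (correlations of 0.0635 and 0.0155). Correction for length and GC content moved the median of all genes by −0.10, to −0.14; 36 nuclear members rose, 3 fell, with a median of 0.35, and 1 mitochondrial member rose, 2 fell, with a median of 0.0509. Without embryos 1 and 4 as well, 41 nuclear members rose, 3 fell, with a median of 0.47, and 3 mitochondrial members rose and 2 fell. With the median coding length, 63 nuclear members rose, 2 fell, with a median of 0.97, and 6 mitochondrial members rose and 0 fell. Among the genes named by rule and called before or after correction, those whose log2 difference changed sign, with and then without embryos 1 and 4, were Cox6a1 (−0.70 and −0.52), Cox6b2 (−0.0654 and −0.35), Cox8a (−0.42 and −0.32), Atp5g3 (−0.0108 and −0.0168), Ndufs7 (−0.20 and −0.17), Ndufa1 (−1.31 and −1.18), Ndufaf4 (0.61 and 0.73), Atp5e (−0.22 and −0.31), Tomm70a (0.32 and 0.55); with the median coding length they were −0.017 for Cox6a1, 0.47 for Cox6b2, 0.29 for Cox8a, 0.72 for Atp5g3, 0.26 for Ndufs7, −0.43 for Ndufa1, 0.49 for Ndufaf4, 0.63 for Atp5e, 0.68 for Tomm70a, so that 5 did not change sign. The causes of these changes were not tested. In the corrected fits, leaving out embryos 1 and 4 and the principal in place of the planned median length were chosen after seeing the data. Having only 2 adults is a limit, since their spread rests on 1 difference. The sex of each library, litter and library batch are not given, so stage cannot be told apart from any litter or batch that follows it.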
